A study of Mus musculus with 6 samples.

Results

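The nuclear RNA polymerase subunit genes are the genes of the count table whose symbol starts with Polr1, Polr2 or Polr3 and ends in letters. The rule found 28 of 49997 genes, and all 28 were among the 21445 genes left by the filter on low counts. RNA was sequenced from long-term haematopoietic stem cells (LT-HSCs), the marrow cells that maintain blood formation, sorted from 4-month-old mice given as C57BL/6J under genotype. The tested comparison was Asrij high (3 libraries) against Asrij low (3 libraries). Asrij is the protein of Ociad1, found on endosomes and mitochondria, and the sort on its level is the difference stated between the groups, with no treatment named. The deposited table also bears the tag ArjKI, which the labels do not explain, and whether all libraries share an altered Asrij allele is not stated. The labels state neither how Asrij was read in the sort nor whether replicate libraries are from different mice, and each p-value reflects only the spread of the sequenced libraries, which may be technical.

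A family of enzymes copies the nuclear genome of an animal cell into RNA. RNA polymerase I (Pol I) makes the large ribosomal RNA precursor in the nucleolus. RNA polymerase II (Pol II) makes messenger RNAs and many noncoding RNAs, and RNA polymerase III (Pol III) makes transfer RNAs, the 5S ribosomal RNA and other short RNAs. Each has its own pair of large subunits that form the active site, a pair of subunits that starts assembly, and a stalk. A set of small subunits is built into all of them, and Pol I and Pol III also share their assembly pair. Growing and dividing cells are known for high Pol I and Pol III output.

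The label of the cells and the scale of the comparison bear on every value below. Library totals ran from 62732782 to 72855125 counts in Asrij high and from 24707012 to 46240743 in Asrij low. Ociad1 had 86.8, 77.6 and 76.3 CPM (counts per 1000000, TMM scaled) in Asrij high and 57.8, 50.2 and 46.6 CPM in Asrij low, with no overlap (log2 fold change 0.64 ± 0.16 SE, adjusted p = 0.0115). That call was lost with library totals as the only scaling, with upper quartile factors and without Asrij high replicate 1. The 8 HSC markers were present in all libraries, summing to 92.2 to 375 CPM in Asrij high, against 916 to 1121 in Asrij low, and 8 of 8 fell, where 17.7% of all tested genes fell. The 12 mitotic (G2/M) markers summed to 2583 to 3866 CPM in Asrij high, against 331 to 636 in Asrij low. Of these, 12 of 12 rose, where 21.7% of all tested genes rose. Stromal markers summed to 23.2 to 75.5 CPM in Asrij high, against 237 to 767 in Asrij low (7 of 8 fell), and erythroid markers to 3081 to 5120 CPM in Asrij high, against 6086 to 44046 in Asrij low (3 of 8 rose and 3 fell). In Asrij low most of the erythroid sum was Hba-a1 and Hbb-bs, which fell with Alas2 (log2 -3.05, -2.90 and -3.08). Klf1, Epor and Car1 rose (log2 2.01, 2.15 and 4.05). B and plasma cell markers summed to 16.4 to 24.3 CPM in Asrij high, against 71.9 to 209 in Asrij low (6 of 7 tested fell), and macrophage markers to 33.4 to 44.5 CPM in Asrij high, against 63.0 to 168 in Asrij low (4 of 6 fell). Granulocyte markers summed to 3901 to 7060 CPM in Asrij high, against 834 to 3420 in Asrij low (3 of 8 rose), megakaryocyte markers to 310 to 1016 CPM in Asrij high, against 464 to 723 in Asrij low (0 of 6 called), and T and NK cell markers to 26.7 to 64.4 CPM in Asrij high, against 20.7 to 40.4 in Asrij low (0 of 2 tested called). Of the T cell markers, Trac was at 0 counts in 5 of 6 libraries and Cd3e in 3. The part of these differences in the subunit results was not tested, and in sorted bulk RNA a different mix of cells and a different level per cell cannot be told apart.

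Subunit genes of all 3 polymerases were higher in Asrij high. Of the 28 genes, 25 rose and 3 did not pass the threshold (edgeR quasi-likelihood test, Benjamini-Hochberg adjusted p under 0.05 over all tested genes), where 21.7% of all tested genes rose. With that test 0 members fell, and 0 fell at an unadjusted p under 0.05, in DESeq2 or in limma-voom. The median log2 fold change of the members was 1.07, against -0.02 over all tested genes, and 16 members rose at least 2-fold, as did 13.9% of all tested genes. In 26 members every Asrij high library lay above every Asrij low library, which held for 30.3% of tested genes (55% in either direction). Fold changes are Asrij high over Asrij low and relative to TMM scaling: library totals moved the median of all genes by -0.27 (log2) and left 17 members higher (15.2% of all tested genes in that fit), and upper quartile factors left 19 (16.1%). Without Asrij high replicate 1 the count was 16 of 28 (13.7% of all tested genes in that fit), and without Asrij high replicate 3 it was 18 (14.5%).

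**Figure D1:**
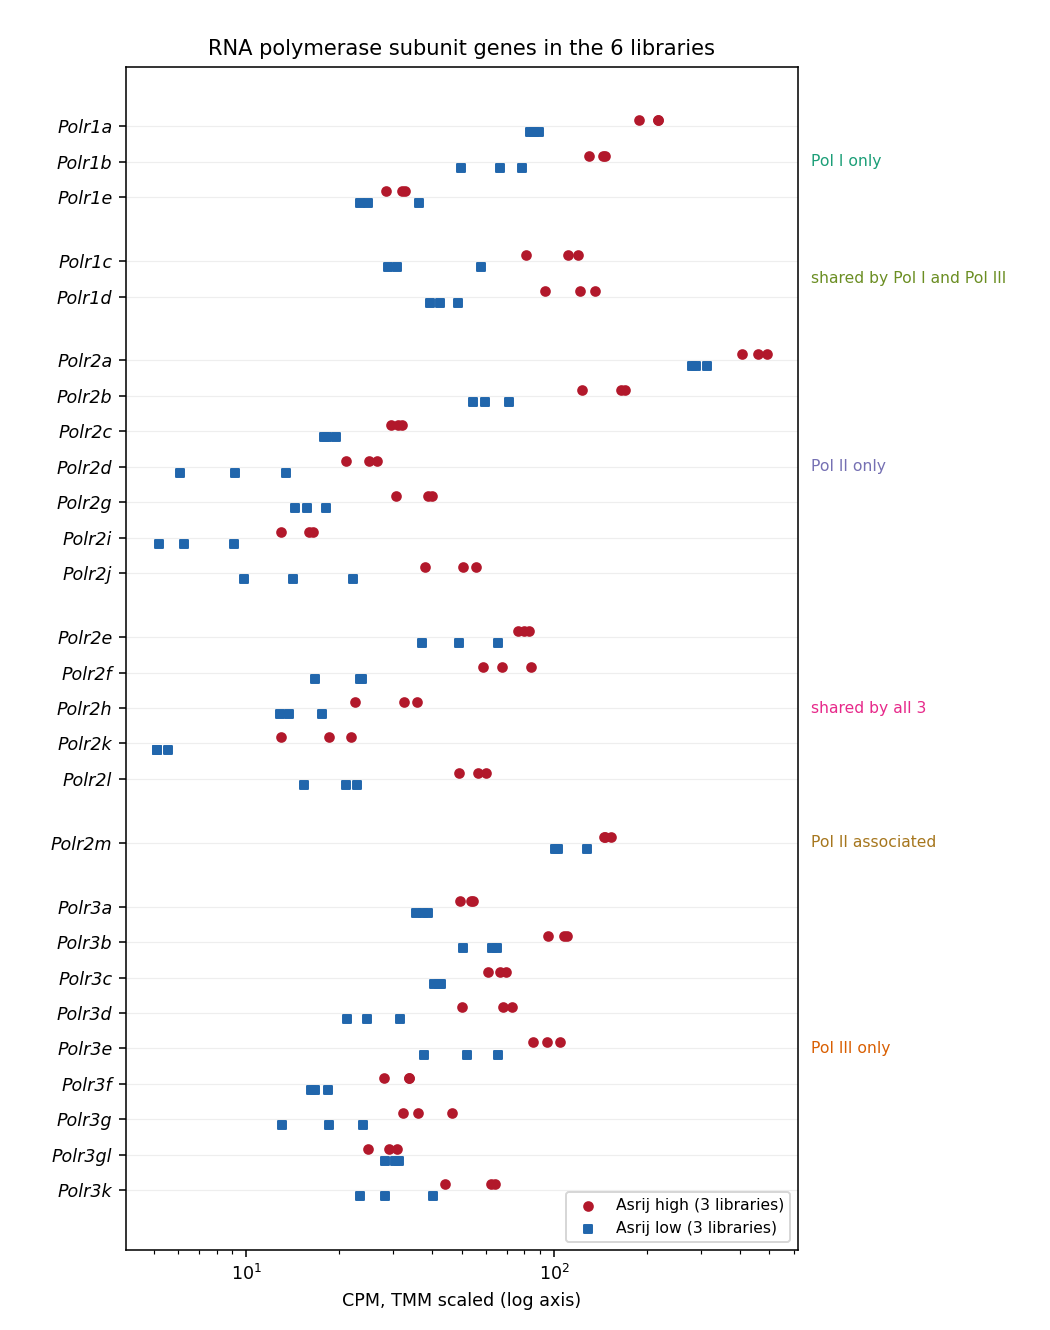
CPM (TMM scaled, log axis) of 27 subunit genes in each Asrij high library (circles) and each Asrij low library (squares), grouped by the polymerase that holds the subunit. The groups stand apart in 25 of them and overlap in Polr1e and Polr3gl.

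The libraries of a group were ordered alike across the members. Asrij high replicate 2 was the lowest of its group in 25 of 28 genes and replicate 1 the highest in 20. Asrij low replicate 2 was the highest of its group in 22 genes and replicate 3 the lowest in 19. The summed level of the members was 2558, 2099 and 2471 CPM in Asrij high replicates 1 to 3 and 1237, 1403 and 1114 CPM in Asrij low replicates 1 to 3. This order was not particular to the members. Pol II general transcription factors summed to 1303, 958 and 1284 CPM in Asrij high and 540, 660 and 529 CPM in Asrij low. Pol I initiation and termination factors had 1079, 923 and 1039 CPM in Asrij high, but 619, 601 and 518 CPM in Asrij low. How many of all tested genes had this order was not counted. Asrij high replicate 2 also had the lowest sum of mitotic markers in its group (2583 CPM, against 3527 and 3866 CPM in replicates 1 and 3) and the highest sum of HSC markers (375 CPM, against 92.2 and 194 CPM). In Asrij low, replicate 3 had the highest sum of mitotic markers (636 CPM, against 331 and 342 CPM in replicates 1 and 2). The summed level of the members was lowest in that library (1114 CPM). The HSC markers summed to 916, 1121 and 1030 CPM in Asrij low replicates 1 to 3. Replicate 2 was highest in HSC markers in both groups, but lowest in most members in Asrij high and highest in most in Asrij low. A link between the order of the members and that of the marker lists was not tested.

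Promoter windows from RefSeq (250 bases before to 50 bases after the start, GRCm38.p6) were matched for 22 of the 28 genes. They are shown for 4 members with different behaviour: Polr3g and Polr3gl, paralogues whose results parted, Polr2f, with a rise of over 3-fold, and Polr2a, the gene with the highest count. Capitals mark an ETS core (CCGGAAG or its complement CTTCCGG), an E-box (CACGTG) or a TATA box (TATAAA), and the windows are chr13:81710964-81711263 (minus strand), chr3:96594132-96594431 (minus), chr15:79141075-79141374 (plus) and chr11:69758584-69758883 (minus), each printed 5′ to 3′ along its gene.
Polr3g: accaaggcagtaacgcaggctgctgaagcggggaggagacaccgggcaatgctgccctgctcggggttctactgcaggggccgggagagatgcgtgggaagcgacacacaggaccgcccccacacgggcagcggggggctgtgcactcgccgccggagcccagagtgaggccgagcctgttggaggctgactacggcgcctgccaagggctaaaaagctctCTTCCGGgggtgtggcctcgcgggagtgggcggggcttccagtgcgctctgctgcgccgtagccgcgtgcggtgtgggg
Polr3gl: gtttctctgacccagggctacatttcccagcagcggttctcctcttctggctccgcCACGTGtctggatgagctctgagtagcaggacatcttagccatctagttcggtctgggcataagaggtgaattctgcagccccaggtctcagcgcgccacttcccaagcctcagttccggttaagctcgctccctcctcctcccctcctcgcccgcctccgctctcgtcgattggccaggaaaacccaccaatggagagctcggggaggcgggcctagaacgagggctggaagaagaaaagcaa
Polr2f: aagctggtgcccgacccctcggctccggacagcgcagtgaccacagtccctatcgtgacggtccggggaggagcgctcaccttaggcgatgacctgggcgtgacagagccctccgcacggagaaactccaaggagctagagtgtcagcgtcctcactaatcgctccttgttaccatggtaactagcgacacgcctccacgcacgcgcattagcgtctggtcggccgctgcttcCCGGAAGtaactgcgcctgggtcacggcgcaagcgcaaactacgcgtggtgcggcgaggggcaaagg
Polr2a: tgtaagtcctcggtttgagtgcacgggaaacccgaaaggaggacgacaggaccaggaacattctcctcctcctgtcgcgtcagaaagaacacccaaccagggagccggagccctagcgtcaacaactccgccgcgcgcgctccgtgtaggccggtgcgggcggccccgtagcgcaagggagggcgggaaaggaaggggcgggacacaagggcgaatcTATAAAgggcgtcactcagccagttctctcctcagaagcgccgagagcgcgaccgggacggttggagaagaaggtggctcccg

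The ETS core begins 29 bases upstream of the RefSeq start in Polr3g and 17 bases upstream in Polr2f. The GENCODE M21 gene start of Polr2f (chr15:79141009) lies before its window, so that position holds for the RefSeq start only. The E-box of Polr3gl begins 194 bases upstream, and the TATA box of Polr2a begins 33 bases upstream. Searched on both strands in 1 window per gene, the ETS core was in 7 of 22 member windows and in 9.12% of 27025 gene windows. The E-box was in 4 of 22 and 7.24% of all, and the GC box (GGGCGG) in 14 of 22 and 35.9%. The TATA box was in 2 of 22 and 14.2% of all, and the CCAAT box (CCAAT) in 6 of 22 and 37.9%. The NRF1 motif (0.977% of all) and the YY1 motif (AAGATGGC, 2.88% of all) were in 0 of 22, which says only that these letters are not in these windows. Member windows had a median of 61.7% G and C, against 52.7% over all genes, and 24.5 CpG pairs against 7. Base composition alone changes how often such letters occur, and a match is a description of the letters, not of a bound site.

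Both large Pol I subunits rose. Polr1a (chromosome 6, 71909053 to 71984935, GRCm38) encodes the largest, catalytic subunit. It had 217, 189 and 218 CPM in Asrij high, against 85.8, 89.2 and 83.2 in Asrij low. The groups were far apart and each was tight, and the log2 fold change was 1.27 ± 0.15 (SE, adjusted p = 4.46e-04). Polr1b, the second largest subunit, had 147, 130 and 144 CPM in Asrij high, against 66.8, 78.8 and 49.6 in Asrij low (log2 1.10 ± 0.19, adjusted p = 0.00225). Asrij low replicate 3 was the low one there, and the groups did not overlap. Both calls held in all 13 alternative settings.

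Polr1e did not pass. It encodes the Pol I subunit also called PAF53, which pairs with the product of Cd3eap. It had 32.7, 28.4 and 31.9 CPM in Asrij high, against 24.8, 36.4 and 23.4 in Asrij low, and Asrij low replicate 2 lay above all Asrij high libraries. Its log2 fold change was 0.14 (95% interval -0.36 to 0.64, adjusted p = 0.657), and it turned to -0.13 under library totals or upper quartile factors. Its partner Cd3eap, a Pol I subunit gene outside the symbol rule (now Polr1g), rose by a log2 fold change of 1.32 ± 0.21 (adjusted p = 0.00168), with 45.8 ± 8.0 CPM in Asrij high, against 18.3 ± 2.67 in Asrij low (SD, n = 3 each). The difference between these partners was not tested.

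Other Pol I subunits carry older symbols as well. Twistnb (now Polr1f), a stalk subunit gene, had 32.0 ± 1.19 CPM in Asrij high, against 18.5 ± 3.74 in Asrij low (log2 0.79 ± 0.22, adjusted p = 0.0172). It was not called when Asrij high replicate 1 or 3 was left out or under library totals or upper quartile factors. Znrd1 (now Polr1h), a subunit gene linked to cleavage of the nascent RNA, had 17.7 ± 1.89 CPM in Asrij high, against 15.4 ± 1.40 in Asrij low and did not pass (log2 0.20 ± 0.22, and -0.07 under library totals or upper quartile factors).

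The assembly pair shared by Pol I and Pol III rose in both members. Polr1c (chromosome 17, 46243920 to 46248054) had 119, 81.2 and 111 CPM in Asrij high, against 28.7, 57.9 and 30.9 in Asrij low, a log2 fold change of 1.40 ± 0.28 (adjusted p = 0.0045). Within each group replicate 2 was the library nearest to the other group. Polr1d had 136, 93.6 and 121 CPM in Asrij high, against 42.6, 48.6 and 39.4 in Asrij low (log2 1.42 ± 0.19, adjusted p = 6.72e-04). The value of Polr1d is uncertain as that of a single gene: 21.9% of the 50-base words of its longest transcript are also in the processed pseudogene Gm12751 on chromosome 4. Counts of Gm12751 were 6783, 5574 and 8589 in Asrij high against 7396, 5965 and 7995 for Polr1d. In Asrij low they were 1645, 1618 and 816, against 2305, 1405 and 1023 for Polr1d. The ratio of Polr1d to Gm12751 ran from 0.931 to 1.09 in Asrij high and from 0.868 to 1.40 in Asrij low, and the rule for reads with several matches is not stated.

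All 7 genes of subunits found in Pol II alone rose, by different amounts. Polr2a (chromosome 11, 69733997 to 69758637) encodes the largest subunit, whose repeated tail is phosphorylated as transcription proceeds. It had 460, 408 and 493 CPM in Asrij high, against 313, 289 and 280 in Asrij low. The groups did not overlap, and the rise was among the smallest of the members (log2 0.62 ± 0.16, adjusted p = 0.0121). Polr2b, the second largest subunit, had 169, 123 and 165 CPM in Asrij high, against 54.3, 71.5 and 59.5 in Asrij low (log2 1.30 ± 0.19, adjusted p = 0.00104). The call of Polr2a was lost without Asrij high replicate 1 or 3 (adjusted p = 0.0596 and 0.0778) and under library totals or upper quartile factors (0.12 and 0.0833), over a range of 0.00317 to 0.12, and that of Polr2b held in every alternative.

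The Pol II assembly pair corresponds to the pair that Pol I and Pol III share. Polr2j had 55.5, 38.1 and 50.7 CPM in Asrij high, against 14.2, 22.2 and 9.83 in Asrij low (log2 1.64 ± 0.30, adjusted p = 0.00304). Its partner Polr2c had 31.1, 32.1 and 29.5 CPM in Asrij high, against 18.3, 19.5 and 17.9 in Asrij low (log2 0.73 ± 0.19, adjusted p = 0.0125). Polr2c varied little within either group, whereas Polr2j was spread over more than 2-fold among the Asrij low libraries. Polr2c overlaps Dok4 on the opposite strand over 18.1% of its exon bases, and Polr2j overlaps Lrwd1 over 15.9%. Of the 50-base words of the longest Polr2c transcript, 24.1% are also in transcripts of other genes, with 10.3% in Dok4. Dok4 was at 2.94 CPM in Asrij high, against 3.91 in Asrij low. Lrwd1 was at 103 CPM in Asrij high, against 57.9 in Asrij low, more than Polr2j itself, and the strand setting of the counts is not stated. The call of Polr2c was lost under the same 4 settings as that of Polr2a.

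The stalk of Pol II, which touches the emerging RNA, is formed by the products of Polr2d and Polr2g. Polr2d had 24.9, 21.1 and 26.6 CPM in Asrij high, against 9.19, 13.4 and 6.09 in Asrij low (log2 1.34 ± 0.30, adjusted p = 0.0076). Polr2g had 40.2, 30.5 and 38.9 CPM in Asrij high, against 14.3, 18.1 and 15.8 in Asrij low (log2 1.18 ± 0.21, adjusted p = 0.00247). Neither overlapped between the groups, and both calls held in every alternative. Polr2i, a small subunit linked to transcript cleavage and fidelity, had 16.4, 13.0 and 15.9 CPM in Asrij high, against 9.08, 6.26 and 5.20 in Asrij low (log2 1.14 ± 0.29, adjusted p = 0.0128). It overlaps Tbcb on the opposite strand over 26.8% of its exon bases, where Tbcb had 37.4 CPM in Asrij high, against 25.1 in Asrij low, and it was no longer called when Asrij high replicate 1 or 3 was left out or under library totals.

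Polr2m encodes Gdown1, a protein that binds Pol II and limits initiation, and is not a core subunit. It had 153, 146 and 146 CPM in Asrij high, against 101, 128 and 103 in Asrij low. The groups did not overlap, but the difference did not pass (log2 0.42, 95% interval 0.07 to 0.77, adjusted p = 0.0579). It passed in limma-voom, without a count filter and without Asrij low replicate 2 (adjusted p = 0.0399, 0.0408 and 0.0182), over a range of 0.0182 to 0.469.

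The 5 genes of subunits built into all 3 polymerases rose, and among them were the largest rises of all members. Polr2k had 21.8, 13.0 and 18.5 CPM in Asrij high, against 5.10, 5.56 and 5.13 in Asrij low, a log2 fold change of 1.75 ± 0.28 (adjusted p = 0.00158). Polr2f had 83.8, 58.8 and 67.8 CPM in Asrij high, against 23.8, 23.3 and 16.6 in Asrij low (log2 1.72 ± 0.22, adjusted p = 6.01e-04). Both were spread in Asrij high, with replicate 2 lowest, and stayed far above every Asrij low library. Polr2l followed with 60.2, 49.1 and 56.4 CPM in Asrij high, against 21.1, 22.8 and 15.4 in Asrij low (log2 1.48 ± 0.21, adjusted p = 9.48e-04).

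The remaining shared subunits had smaller fold changes. Polr2h had 35.9, 22.6 and 32.5 CPM in Asrij high, against 12.9, 17.6 and 13.8 in Asrij low (log2 1.04 ± 0.25, adjusted p = 0.00927). Polr2e had 82.9, 76.4 and 79.7 CPM in Asrij high, against 49.2, 65.8 and 37.2 in Asrij low (log2 0.65 ± 0.21, adjusted p = 0.0358). Polr2e was even in Asrij high and uneven in Asrij low, and its call was lost in 6 of 13 alternatives, with adjusted p from 0.00571 to 0.203. With Asrij high replicate 1 left out, Polr2h had an adjusted p of 0.0515. Words of 50 bases were shared with other transcripts for 24.3% of Polr2k, 21.1% of Polr2l and 18.2% of Polr2h. The main partners of Polr2k and Polr2h were the pseudogenes Gm14567 and Gm7511. They were at 2.45 and 0.452 CPM in Asrij high, against 0.91 and 0.24 in Asrij low.

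**Figure D2:**
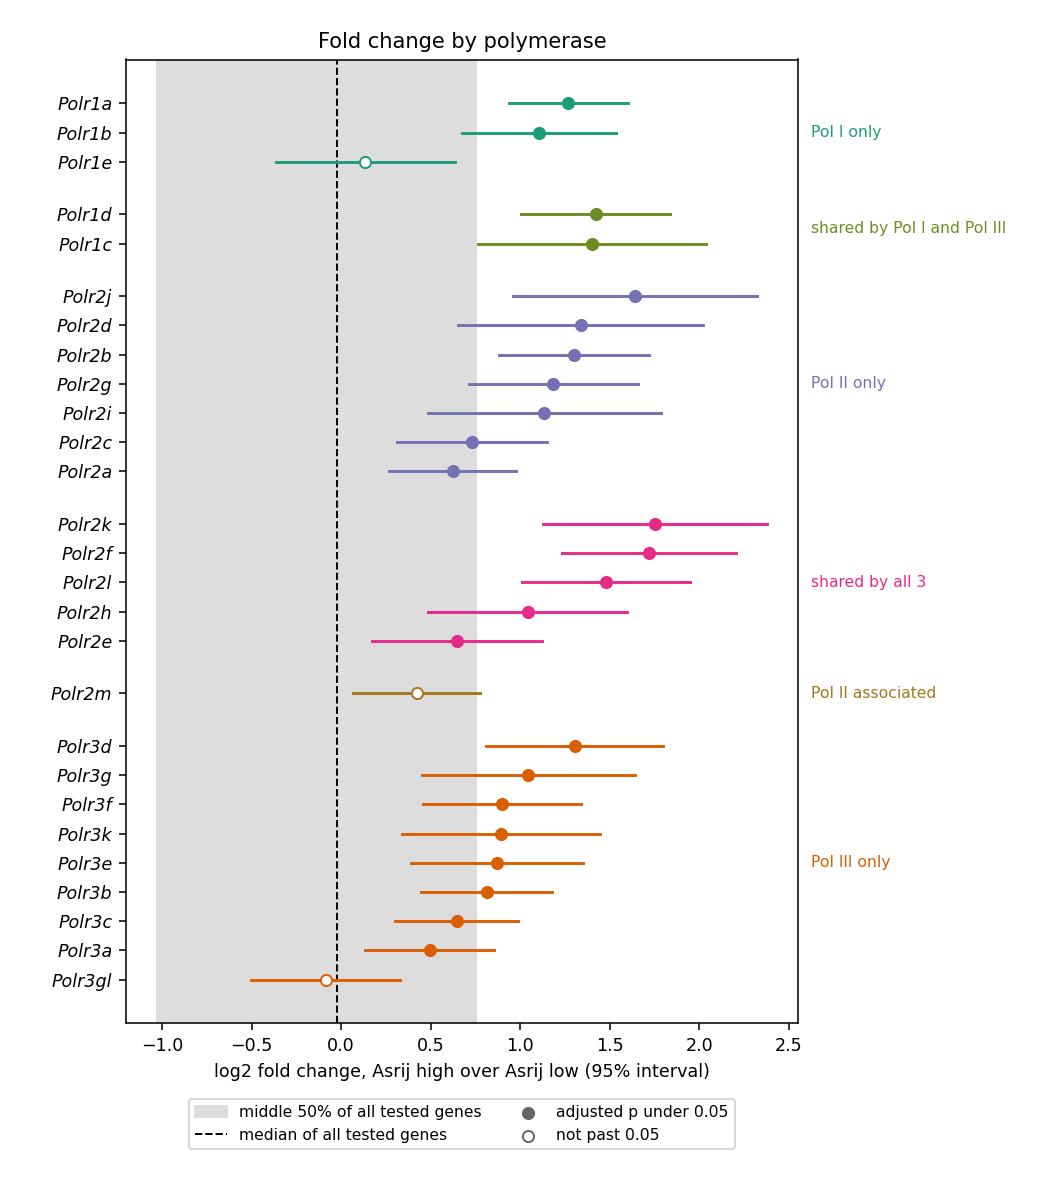
Log2 fold change of 27 subunit genes (Asrij high over Asrij low, point) with its 95% interval, by polymerase, beside the median (dashed) and the middle 50% (grey) of all 21445 tested genes. Filled points passed an adjusted p of 0.05; Polr1e, Polr2m and Polr3gl did not.

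Of 10 genes of subunits found in Pol III alone, 9 rose and 1 did not pass. Their median log2 fold change was 0.88, beside 1.18 for the 7 Pol II genes, 1.48 for the 5 genes shared by all and 1.10 for the 3 Pol I genes, and these medians are descriptions with no test. Polr3a (chromosome 14, 24448696 to 24487058), the catalytic subunit, had 53.7, 49.5 and 54.4 CPM in Asrij high, against 37.5, 38.7 and 35.5 in Asrij low. The groups were tight and apart, and the rise was small (log2 0.49 ± 0.16, adjusted p = 0.0343). Polr3b, the second largest subunit, had 108, 95.2 and 110 CPM in Asrij high, against 65.0, 62.6 and 50.4 in Asrij low (log2 0.81 ± 0.16, adjusted p = 0.00439). The call of Polr3a was lost in 8 of 13 alternatives, with adjusted p from 0.0305 to 0.329, and that of Polr3b held in every one.

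The pair formed by the products of Polr3d and Polr3e resembles the initiation factor TFIIF of Pol II. Polr3d had 72.9, 50.3 and 68.0 CPM in Asrij high, against 24.6, 31.6 and 21.2 in Asrij low (log2 1.30 ± 0.22, adjusted p = 0.00206). Polr3e had 105, 85.3 and 94.6 CPM in Asrij high, against 52.1, 65.6 and 37.8 in Asrij low (log2 0.87 ± 0.21, adjusted p = 0.0105). In both genes replicate 2 was lowest in Asrij high and highest in Asrij low. Polr3e missed the threshold under library totals (adjusted p = 0.0541, range 3.02e-04 to 0.0541).

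Genes of the Pol III stalk and cleavage functions rose too. Crcp, a stalk subunit gene that the symbol rule does not take, had 40.2 ± 9.08 CPM in Asrij high, against 17.1 ± 4.34 in Asrij low (SD, n = 3 each), a log2 fold change of 1.23 ± 0.26 (adjusted p = 0.00565). Polr3k, linked to RNA cleavage and termination, had 62.5, 44.2 and 64.3 CPM in Asrij high, against 28.3, 40.3 and 23.4 in Asrij low (log2 0.89 ± 0.25, adjusted p = 0.0176). Its groups came within a few CPM of each other in replicate 2, and its call was lost in 6 of 13 alternatives, with adjusted p from 6.82e-04 to 0.0692.

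The subunits that open the promoter form a group of their own, made of the products of Polr3c, Polr3f and either Polr3g or Polr3gl. Polr3c had 69.5, 61.0 and 66.6 CPM in Asrij high, against 40.7, 42.9 and 42.4 in Asrij low (log2 0.64 ± 0.15, adjusted p = 0.00944), but was not called when Asrij high replicate 1 or 3 was left out or under library totals or upper quartile factors. Polr3f had 33.7, 28.0 and 33.8 CPM in Asrij high, against 16.7, 16.2 and 18.3 in Asrij low (log2 0.90 ± 0.20, adjusted p = 0.00635). Both were even within the groups.

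Polr3g and Polr3gl encode alternative versions of the last subunit of that group, and the form with Polr3g is known from pluripotent and transformed cells. Polr3g (chromosome 13, 81673843 to 81711013) had 46.6, 32.2 and 36.0 CPM in Asrij high, against 13.1, 24.0 and 18.5 in Asrij low, a log2 fold change of 1.05 ± 0.26 (adjusted p = 0.0122). Polr3gl (chromosome 3, 96577872 to 96594181) had 30.8, 29.0 and 24.9 CPM in Asrij high, against 31.2, 30.5 and 28.2 in Asrij low. The groups overlapped for Polr3gl, with a log2 fold change of -0.09 (95% interval -0.50 to 0.33, adjusted p = 0.74), and it stayed at or below -0.01 in every alternative without passing. With Asrij high replicate 1 left out, Polr3g was not called (adjusted p = 0.0584, over a range of 4.15e-04 to 0.0584).

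Ratios of subunit counts within a library do not depend on scaling between libraries. In all 7 were compared, with an exact two-sided permutation test over the 6 libraries, whose smallest p with 3 against 3 is 0.1. Ratios that share a gene are not independent, and how often ratios of other gene pairs separate the groups was not counted. The ratio of Polr1a to Polr3a was 4.04, 3.81 and 4.01 in Asrij high and 2.29, 2.30 and 2.34 in Asrij low, a log2 difference of 0.77 (exact p = 0.1, adjusted over the 7 ratios p = 0.14). The ratio of Polr1a to Polr2a was 0.472, 0.462 and 0.442 in Asrij high and 0.274, 0.309 and 0.297 in Asrij low, a log2 difference of 0.65 (exact p = 0.1). Neither ratio overlapped between the groups: Polr1a stood higher relative to both other largest subunits in every Asrij high library. The ratio of Polr3a to Polr2a was 0.117, 0.121 and 0.110 in Asrij high and 0.120, 0.134 and 0.127 in Asrij low, which overlapped (log2 difference -0.13, exact p = 0.2).

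The second largest subunits gave another order. The ratio of Polr3b to Polr2b was 0.637, 0.776 and 0.666 in Asrij high and 1.20, 0.874 and 0.847 in Asrij low, a log2 difference of -0.48 (exact p = 0.1). The ratio of Polr1b to Polr3b was 1.36, 1.36 and 1.31 in Asrij high and 1.03, 1.26 and 0.985 in Asrij low (log2 difference 0.31, exact p = 0.1). The groups did not overlap in either. The ratio of Polr1b to Polr2b overlapped, at 0.866, 1.06 and 0.872 in Asrij high and 1.23, 1.10 and 0.834 in Asrij low (log2 difference -0.17, exact p = 0.5). The Pol I gene was thus higher relative to the Pol III gene in both pairs, and relative to the Pol II gene without overlap for the largest subunit but not for the second.

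The ratio of Polr3g to Polr3gl was 1.51, 1.11 and 1.44 in Asrij high and 0.419, 0.788 and 0.657 in Asrij low, a log2 difference of 1.16 (exact p = 0.1, adjusted p = 0.14). It lay above 1 in every Asrij high library and below 1 in every Asrij low library. Counts are not per length here, so the crossing of 1 does not compare molecules.

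**Figure D3:**
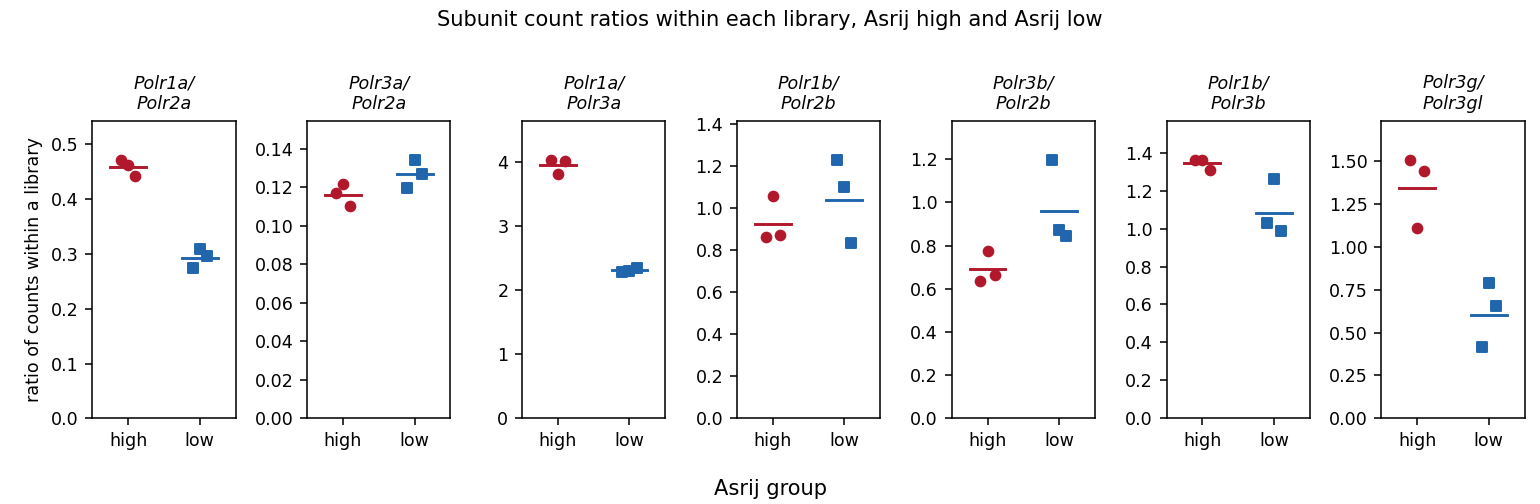
Ratio of counts of 2 subunit genes within each library (points) for Asrij high (left) and Asrij low (right), with the geometric mean of each group (line); axes start at 0. The groups stand apart in 5 of 7 ratios and overlap in Polr3a/Polr2a and Polr1b/Polr2b. Among all tested genes taken singly, 55% stand apart, and other gene pairs were not counted.

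Levels per length, as CPM per kilobase of GENCODE M21 exons, set the members against each other. The annotation behind the counts is not stated, so these levels are approximate. In Asrij high Polr2a (64.2 ± 6.08, SD, n = 3) and Polr2m (61.1 ± 1.62) led, and Polr2m was above Polr2a in replicate 2 only (60.1 against 57.7). Polr1c (45.5 ± 8.73), Polr2j (43.5 ± 8.15) and Polr1d (38.4 ± 7.03) followed. Their SDs overlap, but they had this order in every Asrij high library. In Asrij low Polr2m (45.6 ± 6.33) and Polr2a (41.6 ± 2.41) led as well, and Polr2e (19.0 ± 5.38) and Polr3gl (18.8 ± 0.984) came next. Polr3gl was thus rank 4 of 28 in Asrij low and rank 20 in Asrij high. Polr3g was lower per length than Polr3gl in both groups, at 9.72 ± 1.89 against 17.7 ± 1.90 in Asrij high and 4.71 ± 1.39 against 18.8 ± 0.984 in Asrij low.

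The lowest members per length were Polr3f (4.13 ± 0.431 in Asrij high and 2.21 ± 0.148 in Asrij low) and Polr2c (5.88 ± 0.256 in Asrij high and 3.53 ± 0.163 in Asrij low). With the length of the longest transcript in place of all exons, Polr1d became rank 1 and Polr1c rank 2 in Asrij high, before Polr2m and Polr2a. In Asrij low Polr2m and Polr2a still led, with Polr1d at rank 3 and Polr1c at rank 4. Polr3gl was then rank 6 in Asrij low and rank 21 in Asrij high. Polr3f and Polr2c remained the lowest in both groups. Longer members tended to have smaller fold changes: Spearman's rho between log2 fold change and exon length was -0.415 over the 28 members and -0.0981 over 18321 tested genes with a length. These are descriptions across genes that share the same 6 libraries.

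**Figure D4:**
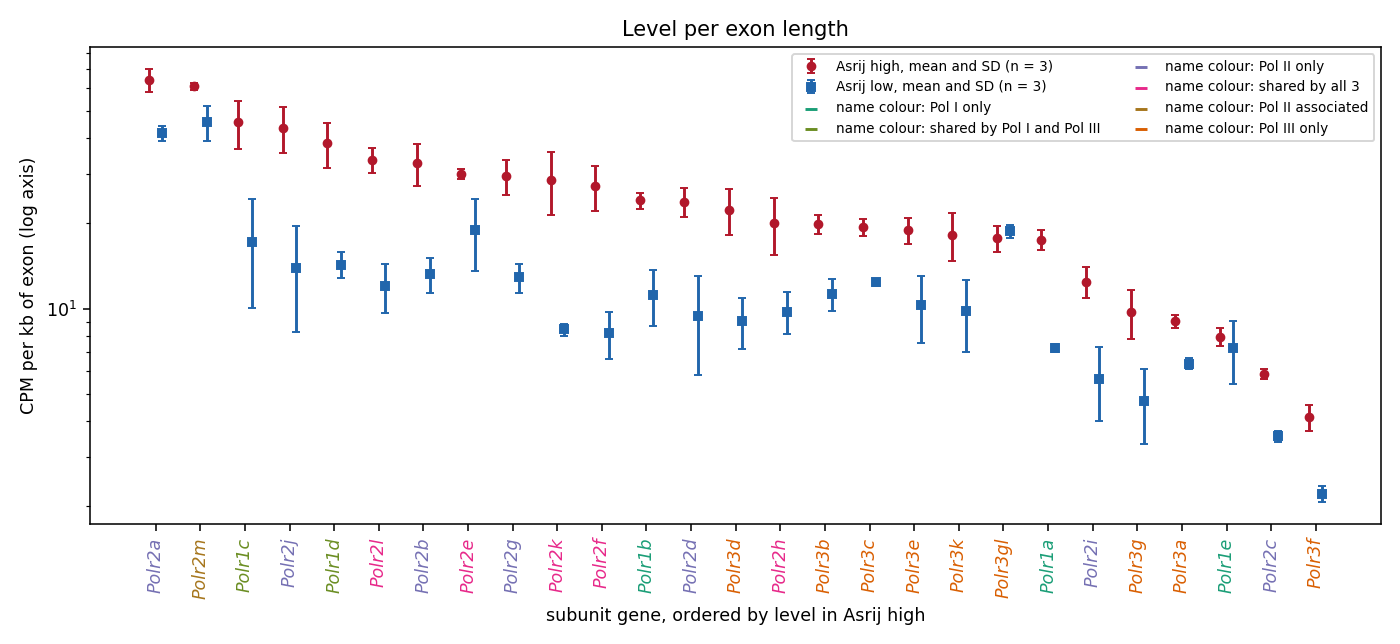
Mean CPM per kilobase of exon (log axis) with the SD over 3 libraries for 27 subunit genes in Asrij high (circles) and Asrij low (squares), ordered by level in Asrij high. Polr2a and Polr2m lead in both groups, and Polr3gl is the member whose Asrij high mean lies below its Asrij low mean.

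Factors that work with the polymerases were described by lists chosen for this purpose, and their counts stand beside 21.7% higher and 17.7% lower among all tested genes. Of 7 tested Pol I initiation and termination factors, 4 rose (median log2 0.63). Ubtf, which binds ribosomal DNA, had 470 ± 72.1 CPM in Asrij high, against 234 ± 27.3 in Asrij low (log2 1.01 ± 0.18, adjusted p = 0.00267). Rrn3, which brings Pol I to the promoter, rose by 1.11 ± 0.27 and Taf1d, of the promoter selectivity factor, by 0.63 ± 0.15, although Taf1d was not called under library totals or upper quartile factors (adjusted p = 0.118 and 0.0740, over all alternatives 0.00254 to 0.118). Taf1a (0.15), Taf1b (0.33) and Ttf1 (0.28) did not pass.

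Among 18 Pol II general transcription factor genes, 14 rose (median 1.0). Both genes of TFIIF, the factor that escorts Pol II to promoters, were among the 3 with the smallest p. Gtf2f1 had 282 ± 72.7 CPM in Asrij high, against 59.0 ± 13.2 in Asrij low (log2 2.26 ± 0.25, adjusted p = 3.59e-04), and Gtf2f2 had 25.3 ± 4.50 CPM in Asrij high, against 9.09 ± 1.58 in Asrij low (1.48 ± 0.25, adjusted p = 0.00202). Gtf2h1, of the factor TFIIH, rose by 1.11 ± 0.17. In the pausing and elongation list 16 of 22 rose and 2 fell (median 0.58). Leo1, of the PAF complex, rose by 1.41 ± 0.24 and Nelfcd, of the pausing factor NELF, by 1.08 ± 0.19. The scaffold gene Aff4 fell, with 66.4 ± 6.91 CPM in Asrij high, against 122 ± 20.2 in Asrij low (-0.88 ± 0.17, adjusted p = 0.00413), and the other fall was that of Tcea2 (-1.34), named after its value was seen.

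Of 16 genes of the list of Pol III initiation factors, which includes the repressor Maf1, 6 rose and 10 did not pass (median 0.46). Bdp1, a subunit of TFIIIB, had 209 ± 42.6 CPM in Asrij high, against 103 ± 22.6 in Asrij low (log2 1.03 ± 0.22, adjusted p = 0.00566). Snapc3 rose by 0.84 ± 0.18 and Gtf3c2, a subunit of TFIIIC, by 0.65 ± 0.15, and the call of Gtf3c2 was lost without Asrij high replicate 1 or 3 and under library totals or upper quartile factors. Maf1 itself had 107 ± 4.69 CPM in Asrij high, against 106 ± 17.8 in Asrij low. Of 14 assembly and import factors 6 rose (median 0.81), with the helicase genes Ruvbl2 (1.34 ± 0.16) and Ruvbl1 (1.30 ± 0.22) and the chaperone adaptor gene Rpap3 (1.19 ± 0.23).

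None of the tested Pol III products passed. Of 6 tested genes of that list, 0 passed in either direction with edgeR, where 39.4% of all tested genes did. At an unadjusted p under 0.05, 0 were higher and 3 lower: Rn7sk and the near-identical copies Rn7s1 and Rn7s2. The share of all tested genes at that unadjusted p was not counted. DESeq2 and limma-voom each called 1 lower, where they called 4939 and 4087 of all 21445 tested genes lower. Rn7sk, the RNA that holds the elongation factor P-TEFb inactive, had 2621 ± 497 CPM in Asrij high, against 3983 ± 841 in Asrij low (log2 -0.61, 95% interval -1.14 to -0.07, adjusted p = 0.0688). Rpph1, the RNA of ribonuclease P, had 1199 ± 366 CPM in Asrij high, against 1453 ± 592 in Asrij low. Rn7s1, an RNA of the signal recognition particle, had 3104, 4772 and 5534 CPM in Asrij high, against 4564, 9572 and 23370.4 in Asrij low (log2 -1.49 ± 0.53, adjusted p = 0.0527). The groups overlapped, Asrij low replicate 3 stood far above the rest, and the near-identical copy Rn7s2 had almost the same counts, so reads cannot be assigned to either; both were named after their values were seen. These are steady-state counts of short, abundant RNAs, and ribosomal RNA was depleted before sequencing, so output of Pol I and Pol III cannot be read from them. Polrmt, the polymerase of mitochondria, had 69.2 ± 9.59 CPM in Asrij high, against 44.1 ± 9.29 in Asrij low (log2 0.65 ± 0.21, adjusted p = 0.0317), and its call was lost in 5 of 13 alternatives.

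**Figure D5:**
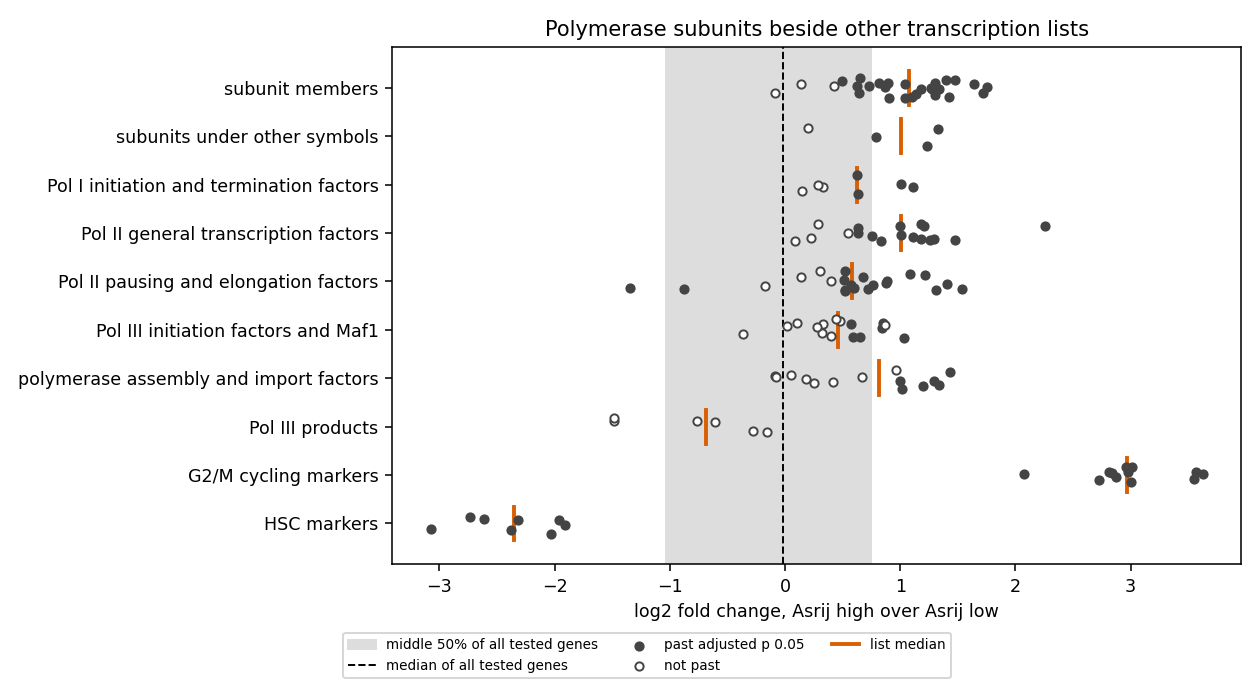
Log2 fold change (Asrij high over Asrij low) of each gene of the subunit set and of the other lists (points; filled, adjusted p under 0.05), with the list median (orange) and the median and middle 50% of all tested genes. The subunits have a median of 1.07, the mitotic markers 2.97 and the HSC markers -2.35.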

How the data were processed

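Per the labels, RNA was isolated from sorted LT-HSCs with a column kit, ribosomal RNA was depleted and directional libraries were built, although the molecule field names polyA RNA. The build mm10 and the tools HISAT2, Subread, SAMtools and FastQC are named in the submitters' processing notes; versions, annotation and the settings of the counter are not stated there. The deposited table holds whole-number counts per gene symbol, not normalized, for 6 libraries, each tied to its sample by the library name in the labels.

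Counts were analysed in R 4.3.3 with edgeR 4.0.16 (TMM factors, robust quasi-likelihood test, group as the only term, filterByExpr with minimum count 10 and total 15), with Benjamini-Hochberg adjustment over 21445 genes. Alternatives were DESeq2 size factors, library totals, upper quartile factors, the DESeq2 1.42.0 Wald test, limma-voom (3.58.1), no filter, a replicate block and each library left out. Replicates within a group differed beyond sampling noise (chi-square per gene 82.5 to 183). On simulated counts of this comparison, the pipeline was tested with 200 changed genes, and the outcome of that test is not reported here.

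Ratios used counts plus 0.5. Named genes were all members, up to 3 genes a list (lowest p among those called and with no overlap of the groups), Ociad1, Polrmt and 4 subunit genes under other symbols; members beside them that are named with values were chosen after those were seen. The values of 1 member are not reported here, though counts and medians over all 28 include it. Members and lists were chosen with earlier results of these data known. Of the listed genes, Ptrf and Rn45s were not found under those symbols, and Rny3, Vaultrc5, Rnu6, Mzb1, Cd3e, Cd3g, Trac and Gzma did not pass the count filter. Exon lengths, overlaps and 50-base words are from GENCODE M21 (GRCm38), promoters from RefSeq (GRCm38.p6).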

Additional observations from a re-analysis of the deposited data

How the results depend on the processing

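Of 28 subunit genes, the direction was kept in all alternatives except for Polr1e, which turned to -0.13 under library totals and under upper quartile factors, as Znrd1 turned to -0.071 and -0.070. Calls were lost in 8 and 6 members under these scalings, so 17 and 19 of 25 were left; every other setting but the leave-out fits lost at most 1. With 1 library left out, the number of members higher ran from 16 to 26, with 0 lower in each, and the number of changed genes from 5481 to 8935, of which 2346 to 3752 were lower; the lowest values came without Asrij high replicate 1. Ociad1 had a log2 fold change of 0.36 under library totals (adjusted p = 0.133) and 0.36 under upper quartile factors (0.0834), and 0.53 to 0.76 with 1 library left out (adjusted p up to 0.0831). The ratios within a library kept their sign in all settings tried.

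Replicate numbers are shared by the groups, but not every same-numbered pair deviated together (r = 0.02, 0.04 and 0.31). The replicate 3 libraries correlated best with each other, while Asrij high replicate 1 correlated best with Asrij low replicate 2 (0.13). With the replicate number as a block, 24 members were higher and 8088 genes changed, and Polr3a was not called (adjusted p = 0.0719).

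Depth was lowest in Asrij low, at 24707012 counts in replicate 3. The member with the fewest counts there was Polr2k with 133, for which counting error is not small beside the spread between Asrij low libraries.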
